A study of Arabidopsis thaliana with 15 samples.

Results

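Salicylic acid is a defence hormone of plants, and the 6 genes described here make it or switch its synthesis on in Arabidopsis thaliana: ICS1 (AT1G74710), EDS5 (AT4G39030), PBS3 (AT5G13320), EPS1 (AT5G67160), CBP60G (AT5G26920) and SARD1 (AT1G73805). They were chosen by name from the known pathway, with earlier results of these data known, and are 6 of the 32833 genes in the count table. All 6 passed the filter on low counts, which left 19404 genes for testing. In this pathway ICS1 converts chorismate to isochorismate in the plastid, EDS5 carries isochorismate to the cytosol, PBS3 joins it to glutamate, and EPS1 helps the conjugate break down to salicylic acid. CBP60G and SARD1 are related DNA-binding proteins that activate ICS1 and other defence genes, and CBP60G also binds calmodulin. In leaves the pathway is known for its induction by pathogens and by the microbial patterns that plant cells sense.

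The plants were of the accession Col-0, grown without other microbes on ground zeolite in closed boxes until 6 weeks old. They were sprayed with Williamsia sp. Leaf354, a leaf bacterium that causes no disease, or with phosphate-buffered saline (mock). At 96 h after spraying the shoots (all parts above ground) were harvested. The 5 groups were mock and inocula of 100000, 1000000, 10000000 and 100000000 CFU/ml (colony-forming units per ml), called W5, W6, W7 and W8. Each group had 3 RNA-seq libraries, and each library pooled 2 plants from different boxes, so that variation between single plants was not measured. The question here is how the synthesis genes varied with the density of a bacterium that does not cause disease.

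The libraries held 17811560 to 21870246 counted fragments each. Summed over 5 leaf markers (RBCS1A, LHCB1.1, CA1, RCA and GLDP1), the level was 18890.1 to 21282 CPM (counts per 1000000 counted fragments, library sizes scaled by TMM) in W8 libraries, against 25071 to 28649.5 CPM in W5 libraries and 25467 to 32817 CPM in mock libraries. The 6 root markers summed to at most 0.452 CPM in any library, with 2 of them at 0 throughout, and the 5 flower markers to 2.16 to 5.57 CPM. All 5 leaf markers were lower in W8 than in W5 (edgeR, adjusted p under 0.05), and the part of this shift in the results was not tested. In whole shoots, fewer cells of a type and less RNA per cell cannot be told apart. On the leading principal component, with 49.7% of the variance, mock replicate 3 lay at 19.4, within the range of the W7 libraries (-3.94 to 25.0), while the other mock libraries lay at -42.4 and -39.8. On the next component, with 9.17% of the variance, it lay at 49.99, apart from the W7 libraries (-15.7 to -4.13) and from the other mock libraries (4.31 and 7.17). Results of the 6 genes against mock are therefore given with and without that library.

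The promoters of 4 of the genes are given to show where known binding sequences of defence regulators occur in them, or do not. Each is the 250 bases before the gene's start in the RefSeq annotation of TAIR10.1, on the gene's strand, with matches on either strand in capitals. ICS1 (chr1:28070295-28074177, plus strand) is shown because CBP60G and SARD1 act on it and are known to bind GAAATTT. EDS5 (chr4:18185437-18189224, plus strand) and SARD1 (chr1:27744790-27749248, minus strand) are shown because they hold the other matches, and EPS1 (chr5:26797596-26799265, minus strand) because its values ran opposite to those of the other genes.
ICS1 promoter, chr1:28070045-28070294, plus strand: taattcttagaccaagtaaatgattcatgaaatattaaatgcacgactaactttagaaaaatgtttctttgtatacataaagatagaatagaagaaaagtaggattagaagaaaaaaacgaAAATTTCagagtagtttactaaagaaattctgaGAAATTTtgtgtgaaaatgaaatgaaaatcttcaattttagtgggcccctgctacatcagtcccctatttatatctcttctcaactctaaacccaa
EDS5 promoter, chr4:18185187-18185436, plus strand: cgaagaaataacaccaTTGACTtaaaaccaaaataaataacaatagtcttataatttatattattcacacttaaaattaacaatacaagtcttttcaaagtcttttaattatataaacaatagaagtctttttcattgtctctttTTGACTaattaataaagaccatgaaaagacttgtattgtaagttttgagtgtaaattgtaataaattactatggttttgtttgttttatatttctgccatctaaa
SARD1 promoter, chr1:27749249-27749498, minus strand: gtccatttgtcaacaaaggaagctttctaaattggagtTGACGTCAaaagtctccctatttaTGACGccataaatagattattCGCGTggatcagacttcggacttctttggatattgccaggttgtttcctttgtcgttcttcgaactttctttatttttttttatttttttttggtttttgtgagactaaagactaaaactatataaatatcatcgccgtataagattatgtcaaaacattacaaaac
EPS1 promoter, chr5:26799266-26799515, minus strand: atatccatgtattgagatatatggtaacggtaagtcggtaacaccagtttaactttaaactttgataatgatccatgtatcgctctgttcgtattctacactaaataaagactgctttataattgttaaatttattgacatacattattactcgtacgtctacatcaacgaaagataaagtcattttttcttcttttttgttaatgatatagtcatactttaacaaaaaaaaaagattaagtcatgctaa
The motifs searched were GAAATTT, the W box of WRKY factors (TTGACC or TTGACT), the CGCGT core of calmodulin-binding CAMTA factors and the TGACG core of TGA factors. The ICS1 window held GAAATTT at 2 places, starting 129 and 96 bases before the gene's start, and 12.2% of 32546 promoters of this length held at least 1. The EDS5 window held 2 W boxes, 234 and 105 bases before the start, against 27.8% of promoters with at least 1. The SARD1 window held 3 TGACG matches, at 212, 209 and 188 bases, of which those at 212 and 209 overlap, and 1 CGCGT match at 167 bases. TGACG occurred in 18.4% of promoters and CGCGT in 6.66%. None of these motifs was found in the EPS1, PBS3 or CBP60G window. PBS3 lies at chr5:4267456-4271064 and CBP60G at chr5:9475679-9478777, both on the plus strand. A match describes letters only and was not tested for binding.

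At the highest density ICS1, PBS3 and both regulators were higher than at the lowest, and EPS1 was lower. In W8 against W5, ICS1, PBS3, CBP60G and SARD1 rose, EPS1 fell, and EDS5 did not pass the test. These 5 of 6 genes compare with 33.4% of all tested genes (18.1% higher and 15.2% lower). The median log2 fold change of the 6 genes was 1.64, against -0.0043 over all tested genes. Called here means an adjusted p under 0.05 in edgeR's quasi-likelihood test, corrected over all tested genes, and errors of fold changes are standard errors.

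**Figure D1:**
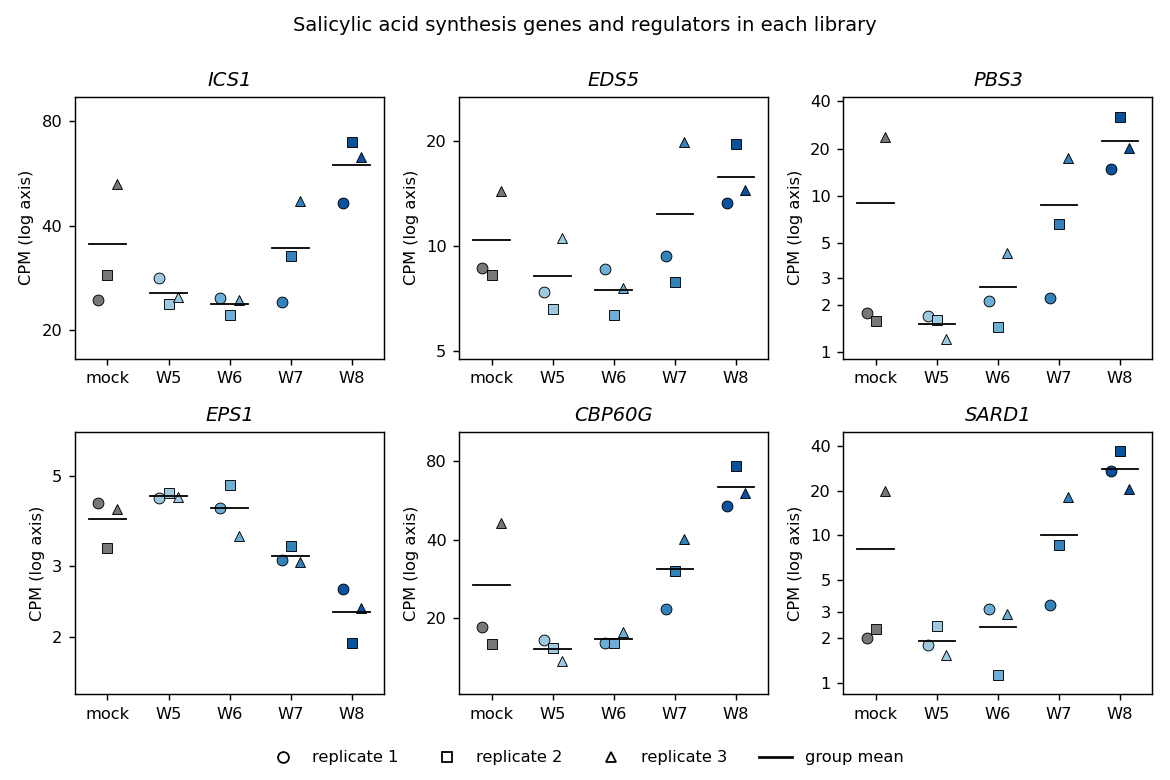
Level of each gene in every library, in CPM on a log axis, with mock at the left and then W5, W6, W7 and W8; points are libraries, and bars are group means. SARD1 and CBP60G lie in W8 above every other library, EPS1 lies below, and mock replicate 3 stands above the other mock libraries for all genes but EPS1.

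ICS1, the isochorismate synthase, had 24.4, 28.9 and 52.6 CPM in the mock libraries (replicates 1, 2 and 3). It had 28.2, 23.7 and 24.8 CPM in W5, 24.8, 22.1 and 24.4 CPM in W6, 24.0, 32.6 and 47.0 CPM in W7, and 46.5, 69.7 and 63.1 CPM in W8. Every W8 library lay above every W5 and W6 library, but W8 overlapped W7 through W7 replicate 3 and overlapped mock through mock replicate 3. In W8 ICS1 averaged 59.8 ± 11.997 CPM, against 25.6 ± 2.32 CPM in W5 (SD, n = 3 each), a log2 fold change of 1.223 ± 0.30 (2.33-fold, adjusted p = 0.0104).

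EDS5, the transporter that moves isochorismate out of the plastid, had 8.66, 8.28 and 14.3 CPM in mock, 7.36, 6.61 and 10.6 CPM in W5, and 8.61, 6.35 and 7.56 CPM in W6. It had 9.34, 7.91 and 19.8 CPM in W7 and 13.3, 19.6 and 14.5 CPM in W8. W8 lay above all W5 and W6 libraries, yet W7 replicate 3 lay above every W8 library, and the difference between W8 and W5 was not called. In W8 EDS5 averaged 15.8 ± 3.39 CPM, against 8.18 ± 2.10 CPM in W5 (SD, n = 3 each), a log2 fold change of 0.95 ± 0.36 (adjusted p = 0.0637). The call changed with the setting: adjusted p was 0.0314 in DESeq2, 0.0495 without mock replicate 3, 0.0451 without W7 replicate 2, 0.00955 without W7 replicate 3 and 0.00981 when only W8 and W5 were fitted. Of the bases of its exons, 90.6% are its own, and the rest overlap AT4G39040 on the opposite strand, at 70.7 to 98.1 CPM. No source used here says whether counting used strand.

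PBS3, which joins isochorismate to glutamate, had 1.79, 1.58 and 23.7 CPM in mock, 1.70, 1.61 and 1.216 CPM in W5, and 2.12, 1.45 and 4.27 CPM in W6. It had 2.21, 6.59 and 17.5 CPM in W7 and 14.8, 31.8 and 20.04 CPM in W8. Every W8 library exceeded every W5 and W6 library, whereas mock replicate 3 and W7 replicate 3 lay inside the W8 range. The W5 level of PBS3 rests on 34, 35 and 23 fragments. In W8 PBS3 averaged 22.2 ± 8.69 CPM, against 1.51 ± 0.258 CPM in W5 (SD, n = 3 each), a log2 fold change of 3.87 ± 1.13 (14.6-fold, adjusted p = 0.0233). The call ended without W5 replicate 1, 2 or 3 (adjusted p = 0.0704, 0.0700 and 0.0761) and without W8 replicate 2 (adjusted p = 0.0670).

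EPS1, an acyltransferase-family enzyme that acts on the isochorismate-glutamate conjugate, had 4.30, 3.32 and 4.15 CPM in mock, 4.41, 4.55 and 4.44 CPM in W5, and 4.18, 4.77 and 3.56 CPM in W6. It had 3.10, 3.36 and 3.07 CPM in W7 and 2.62, 1.93 and 2.35 CPM in W8. All W8 libraries lay below all 12 others. In W8 EPS1 averaged 2.30 ± 0.352 CPM, against 4.46 ± 0.0722 CPM in W5 (SD, n = 3 each), a log2 fold change of -0.95 ± 0.17 (0.516-fold, adjusted p = 0.000332). These levels of EPS1 rest on low counts: 88, 99 and 84 fragments in W5 and 58, 41 and 43 in W8. An SD from 3 such libraries gives only a rough spread. Mock replicate 3 did not stand apart for EPS1: it held 1.09-fold the mean of the other mock libraries.

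CBP60G, the calmodulin-binding activator, had 18.4, 15.9 and 46.1 CPM in mock, 16.5, 15.4 and 13.7 CPM in W5, and 16.0, 16.0 and 17.8 CPM in W6. It had 21.6, 30.3 and 40.3 CPM in W7 and 53.7, 76.4 and 60.1 CPM in W8. The W8 libraries lay above all 12 others, and the W7 libraries above all of W5 and W6. In W8 CBP60G averaged 63.4 ± 11.7 CPM, against 15.2 ± 1.43 CPM in W5 (SD, n = 3 each), a log2 fold change of 2.06 ± 0.38 (4.16-fold, adjusted p = 0.00176).

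SARD1, the partner of CBP60G that does not bind calmodulin, had 2.01, 2.30 and 19.998 CPM in mock, 1.80, 2.43 and 1.53 CPM in W5, and 3.15, 1.12 and 2.90 CPM in W6. It had 3.34, 8.59 and 18.2 CPM in W7 and 27.0, 37.0 and 20.5 CPM in W8. W8 exceeded all 12 other libraries, although W8 replicate 3 was close to mock replicate 3. In W8 SARD1 averaged 28.2 ± 8.33 CPM, against 1.92 ± 0.462 CPM in W5 (SD, n = 3 each), a log2 fold change of 3.86 ± 0.94 (14.5-fold, adjusted p = 0.00928). The W5 level of SARD1 rests on 36, 53 and 29 fragments. Of its exon bases, 81.6% are its own. The overlapping gene AT1G73790 had at most 0.197 CPM in any library.

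Across the 12 inoculated libraries, which leave out mock, all 6 genes changed with density. Against this, 34.7% of all tested genes had a called slope (19.4% higher and 15.4% lower). Per 10-fold increase in density the log2 slope was 1.42 ± 0.19 for SARD1 (adjusted p = 0.000247), 1.37 ± 0.21 for PBS3 (adjusted p = 0.000565) and 0.72 ± 0.085 for CBP60G (adjusted p = 8.31e-05). ICS1 rose by 0.43 ± 0.087 (adjusted p = 0.00311) and EDS5 by 0.36 ± 0.11 (adjusted p = 0.0225), while EPS1 had a slope of -0.32 ± 0.056 (adjusted p = 0.000262). EDS5 was not called without W5 replicate 2 (adjusted p = 0.0556) or without W8 replicate 2 (adjusted p = 0.0858).

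Step by step, edgeR with all libraries called none of the 6 genes between neighbouring densities. In W6 against W5, 0 were called by edgeR and by DESeq2 (0.289% of all tested genes) and 0 had an unadjusted p under 0.05. The log2 fold changes of this step were 0.29 ± 1.11 for SARD1, 0.76 ± 1.31 for PBS3 and 0.12 ± 0.39 for CBP60G. They were -0.11 ± 0.31 for ICS1, -0.12 ± 0.37 for EDS5 and -0.096 ± 0.17 for EPS1. In W7 against W6, 0 were called by edgeR and by DESeq2 (2.62% of all tested genes by edgeR) and 2 had an unadjusted p under 0.05, CBP60G and EPS1. In W8 against W7, 0 were called by edgeR and 1, CBP60G, by DESeq2 (adjusted p = 0.0373), while 3 had an unadjusted p under 0.05 and 12.1% of all tested genes were called. On the log2 scale, W7 against W6 gave 2.07 ± 0.94 for SARD1, 1.75 ± 1.09 for PBS3 and 0.71 ± 0.36 for EDS5. W8 against W7 gave 1.501 ± 0.79 for SARD1, 1.354 ± 0.93 for PBS3 and 0.36 ± 0.35 for EDS5. For CBP60G, ICS1 and EPS1, W7 against W6 gave 0.89 ± 0.38, 0.54 ± 0.31 and -0.39 ± 0.17, and W8 against W7 gave 1.05 ± 0.36, 0.79 ± 0.30 and -0.47 ± 0.18. Whether W7 against W6 or W8 against W7 was wider turned for all 6 genes on leaving out 1 library. Without W7 replicate 3, W7 against W6 was at 1.346 for SARD1, 0.79 for PBS3 and 0.21 for EDS5, and W8 against W7 at 2.23, 2.32 and 0.86 for these genes. Without W7 replicate 1, W7 against W6 was at 0.74 for ICS1 and 1.09 for CBP60G, and W8 against W7 at 0.59 and 0.84. W7 libraries varied: replicate 3 was the highest for all genes but EPS1. In W7 against W5, 0 were called by edgeR and 1, SARD1, by DESeq2 (adjusted p = 0.0490), with 3 at an unadjusted p under 0.05 and 7.54% of all tested genes called. Mock replicate 3 takes part in the estimate of the spread. Without it, edgeR called CBP60G and SARD1 in W7 against W5 (adjusted p = 0.0128 and 0.0439) and CBP60G in W7 against W6 (adjusted p = 0.0372). In W8 against W7, CBP60G and ICS1 were then called (edgeR adjusted p = 0.00525 and 0.0386). The shares of all tested genes called in these fits are not given here.

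Against mock, CBP60G was higher and EPS1 lower in W8, and the edgeR calls of ICS1, PBS3 and SARD1 differed with and without mock replicate 3. EDS5 was not called by edgeR either way. With all libraries, CBP60G rose in W8 (log2 fold change 1.23 ± 0.36, adjusted p = 0.0215) and EPS1 fell (-0.77 ± 0.18, adjusted p = 0.00203). These 2 of 6 are near the 35.5% of all tested genes called (18.5% higher and 17% lower). SARD1 (1.77 ± 0.79, adjusted p = 0.113), PBS3 (1.27 ± 0.93, adjusted p = 0.328), ICS1 (0.75 ± 0.30, adjusted p = 0.0758) and EDS5 (0.59 ± 0.35, adjusted p = 0.225) did not pass. ICS1 passed in DESeq2 (adjusted p = 0.0444). CBP60G did not pass without mock replicate 1 (adjusted p = 0.0821), mock replicate 2 (0.0735) or W8 replicate 2 (0.0774), or when only W8 and mock were fitted (0.149).

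Mock replicate 3 held 14.1-fold the mean of the other mock libraries for PBS3, 9.28-fold for SARD1, 2.68-fold for CBP60G, 1.98-fold for ICS1 and 1.69-fold for EDS5. Without it, 5 of 6 genes were called in W8 against mock, with 38.4% of all tested genes (20.5% higher and 17.8% lower). SARD1 then differed by 3.71 ± 0.70 (adjusted p = 0.00231), PBS3 by 3.72 ± 0.86 (adjusted p = 0.00692), CBP60G by 1.89 ± 0.24 (adjusted p = 0.000115), ICS1 by 1.17 ± 0.26 (adjusted p = 0.00514) and EPS1 by -0.72 ± 0.20 (adjusted p = 0.00802). EDS5 was at 0.90 ± 0.38 (adjusted p = 0.0915). In W7 against mock, 0 were called by edgeR and by DESeq2 with all libraries (13.1% of all tested genes, 0 of the 6 at an unadjusted p under 0.05), and CBP60G was called without mock replicate 3 (0.85 ± 0.24, adjusted p = 0.0326, with 19.8% of all tested genes).

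In W6 against mock 0 of 6 were called by edgeR and by DESeq2 (1.28% of all tested genes) and 0 had an unadjusted p under 0.05. In W5 against mock 0 were called by both (0.18%) and 1, PBS3, had an unadjusted p under 0.05 (log2 fold change -2.60 ± 1.16, adjusted p = 0.812 by edgeR). Without mock replicate 3 that value was -0.15, and the W5 values of ICS1, EDS5, EPS1, CBP60G and SARD1 were -0.06, -0.05, 0.23, -0.17 and -0.15.

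**Figure D2:**
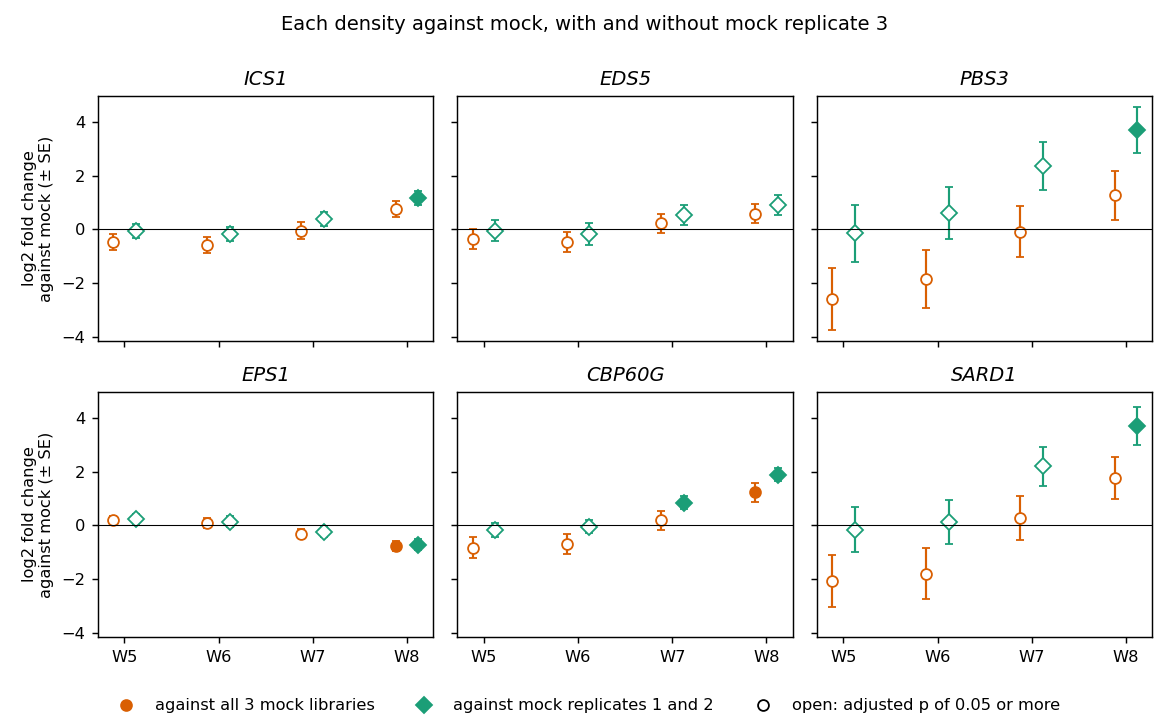
Log2 fold change against mock of each gene in W5, W6, W7 and W8 (edgeR), with standard errors, with all libraries and without mock replicate 3. Without that library, PBS3 and SARD1 stand at 3.72 and 3.71 in W8.

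The genes differed in how steeply they followed density, measured as the slope of the log2 ratio to ICS1 over the 12 inoculated libraries (0.5 CPM added to each level). The ratio of SARD1 to ICS1 rose by 0.82 ± 0.13 per 10-fold density (permutation test, two-sided, adjusted over 5 genes, p = 0.000533), that of PBS3 by 0.75 ± 0.13 (p = 0.0007) and that of CBP60G by 0.28 ± 0.026 (p = 5e-05, the unadjusted p being 1e-05, the smallest that 100000 resamples can give). The ratio of EPS1 to ICS1 fell by 0.69 ± 0.12 (permutation test, adjusted p = 0.00045). For EDS5 the slope was -0.07 ± 0.076 (permutation test, adjusted p = 0.350), so a difference from ICS1 was not shown. Without W8 these 4 calls held in the same permutation test (adjusted p = 0.0122 for CBP60G at the lowest and 0.0306 for PBS3 and EPS1 at the highest), and the EDS5 slope was 0.05 (adjusted p = 0.673).

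**Figure D3:**
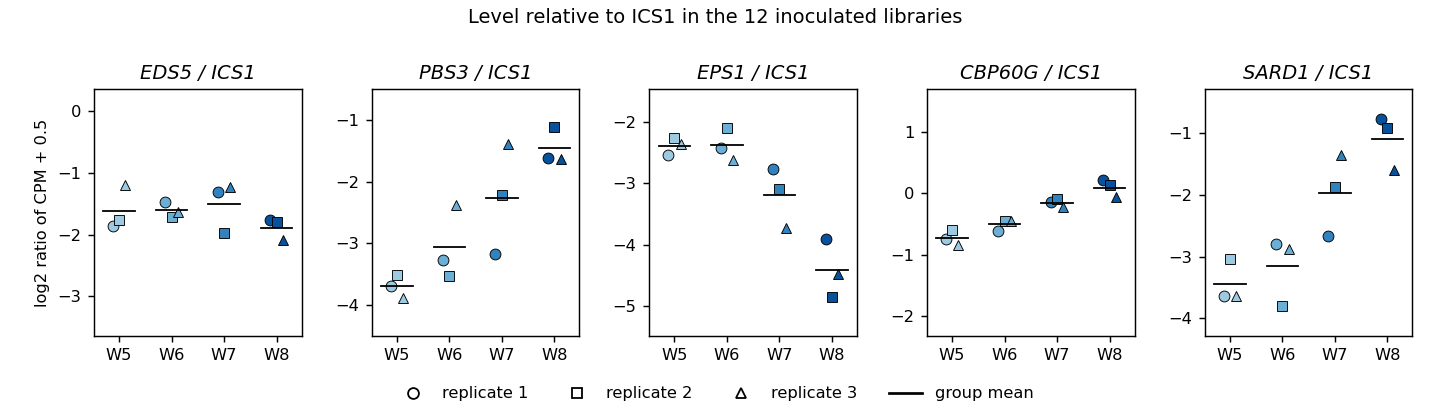
Log2 ratio of each of the other 5 genes to ICS1 in the 12 inoculated libraries, by group from W5 to W8. Points are libraries, and bars are group means. The group means of SARD1, PBS3 and CBP60G rise from W5 to W8, and that of EPS1 is lowest in W8.

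The order of the genes can be compared per kilobase of exon. In W5 the means were 11.7 CPM per kb for ICS1, 6.60 for CBP60G, 3.62 for EDS5, 2.67 for EPS1, 0.802 for SARD1 and 0.576 for PBS3, with SDs of 1.07, 0.621, 0.930, 0.0432, 0.193 and 0.0986 in that order. By group mean, ICS1, CBP60G and EDS5 held the top places in this order in mock (16.2, 11.6 and 4.61), W6 (10.9, 7.20 and 3.32) and W7 (15.8, 13.3 and 5.47). The place of EDS5 did not hold in every library. It was below PBS3 and SARD1 in mock replicate 3 (6.34 against 9.05 and 8.34). EDS5 was below EPS1 in W6 replicate 2 (2.81 against 2.85) and below SARD1 in W7 replicate 2 (3.496 against 3.58). In W7, EDS5 (SD 2.88) and SARD1 (4.18 ± 3.13) differ by less than their spread, as do EDS5 and PBS3 (3.45 ± 4.85) in mock. In W8 the means were 27.5 ± 5.07 for CBP60G, 27.4 ± 5.50 for ICS1, 11.7 ± 3.47 for SARD1, 8.48 ± 3.32 for PBS3, 6.98 ± 1.499 for EDS5 and 1.38 ± 0.211 for EPS1 (SD, n = 3). ICS1 and CBP60G in W8 differ by less than their spread, as do SARD1 and PBS3, and PBS3 and EDS5. In W5 EPS1 stood above PBS3 and SARD1, and in W8 it was below all the others.

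Genes with the most similar pattern were found by the root-mean-square difference of standardized log2 CPM over the 15 libraries, where 0 is an identical pattern. This is a description over libraries that share density and mock replicate 3. For SARD1 the nearest were PBS3 (0.220), the protein kinase gene AT1G51620 (0.228) and CBP60G (0.228). For PBS3 they were AT5G52760 (0.149), a copper transport family gene, AT5G41750 (0.175), a TIR-NBS-LRR disease resistance gene, and AT1G57630 (0.189), a TIR domain gene. CBP60G was most like EXO70B2 (0.153), a subunit gene of the exocyst, then XBAT34 (0.184) and AT5G41750 (0.186). For ICS1 the nearest were AT5G42050 (0.246), AT1G09932 (0.246) and AT1G57630 (0.258). EDS5 was nearest to B120 (0.346), a lectin receptor kinase gene, RWA4 (0.378) and UCP5 (0.406). EPS1 was nearest to AT2G18245 (0.312), GlcNAc1pUT1 (0.386) and AT4G19830 (0.393).

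Other genes of the pathway were followed in W8 against W5, where the background was 33.4%. Of 10 tested activators of the synthesis genes, 7 rose and 0 fell (median log2 fold change 0.80, against -0.0043 over all tested genes). They include NDR1, a plasma membrane protein needed by many resistance proteins (1.33 ± 0.16, adjusted p = 4.03e-06), EDS1 (0.89 ± 0.11, adjusted p = 1.219e-05) and PAD4 (0.89 ± 0.12, adjusted p = 3.89e-05), which act together in resistance signalling, and TGA1 (0.71 ± 0.10, adjusted p = 3.67e-05), a bZIP factor. Leaving out 1 library left 5 to 7 calls. WRKY28, also among the 7, was not called when any 1 of the 12 inoculated libraries was left out, nor with no filter on low counts (edgeR adjusted p = 0.0677). WRKY46, also among the 7, was not called without any 1 W5 library, W6 replicate 3, W7 replicate 2, W8 replicate 2 or W8 replicate 3. Without W8 replicate 2 the edgeR adjusted p was 0.151 for WRKY28 and 0.107 for WRKY46. TCP9 had 0 CPM in every group and did not pass the filter. Of its exon bases, 1.4% are its own, and the rest overlap AT2G45685 on the opposite strand. The part of this overlap in the value of 0 was not tested.

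Of 12 repressors, 6 rose and 0 fell (median 0.54). They include WRKY70, at 143 ± 26.7 CPM in W8 against 13.3 ± 2.24 CPM in W5 (SD, n = 3 each; log2 fold change 3.43 ± 0.63, adjusted p = 0.00179). NPR1, best known as a salicylic acid receptor, rose by 0.69 ± 0.081 (adjusted p = 3.62e-06), EIN3, an ethylene-response factor, by 0.38 ± 0.069 (adjusted p = 0.000306) and CAMTA3, a calmodulin-binding factor, by 0.36 ± 0.080 (adjusted p = 0.00174). In both lists every gene called in W8 against W5 was higher in W8. Against mock, with all libraries, 5 of 10 tested activators were higher in W8 and 1 was lower. Of 12 repressors, 8 were higher and 0 lower there, with 18.5% of all tested genes higher and 17% lower. The lower activator was CHE, a TCP-family factor named here after its values were seen, at -0.34 ± 0.065 (edgeR adjusted p = 0.000499). CHE was also lower in W7 against mock (-0.36 ± 0.065, adjusted p = 0.00113) and fell with density (slope -0.061 ± 0.021, adjusted p = 0.0352).

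Of 10 genes for the supply of chorismate, 3 rose and 1 fell (median 0.10): EMB1144 (0.25 ± 0.073, adjusted p = 0.0132), AT1G22410 (0.25 ± 0.076, adjusted p = 0.0149) and MEE32 (0.19 ± 0.061, adjusted p = 0.0216) rose, and AT1G48860 fell (-0.25 ± 0.058, adjusted p = 0.00243). The share called in this list was near the 33.4% of all tested genes (18.1% higher and 15.2% lower). Leaving out 1 library left as few as 1 call, without W8 replicate 2, and 2 calls without W5 replicate 1, W5 replicate 2 or W8 replicate 1. Without W5 replicate 2, EMB1144, AT1G22410 and MEE32 were not called (edgeR adjusted p = 0.0562, 0.0671 and 0.0922), so that count takes in a gene not named here. Of 8 genes on branches that share chorismate or isochorismate, ASA1 (0.98 ± 0.11, adjusted p = 5.6e-06) and ASB1 (0.79 ± 0.16, adjusted p = 0.00217), whose products form anthranilate synthase, rose, and AT2G21340 fell (-0.27 ± 0.070, adjusted p = 0.00506). The share called in this list was also near that of all tested genes. This list gave 5 calls without W8 replicate 1. ICS2, the second isochorismate synthase gene, was at -0.58 ± 0.24 in W8 against W5 (edgeR adjusted p = 0.0761). In W8 against mock, with all libraries, ICS2 was lower (-0.75 ± 0.24, edgeR adjusted p = 0.0200). There 2 of these 8 genes were higher and 4 lower, with 18.5% of all tested genes higher and 17% lower.

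On the phenylalanine route PAL2, a phenylalanine ammonia lyase, fell by 0.64 ± 0.068 (adjusted p = 1.217e-06), and AIM1, a peroxisomal enzyme, rose by 0.16 ± 0.052 (adjusted p = 0.0239). These were 2 of 5 genes (median -0.09), near the 33.4% of all tested genes called. AIM1 was not called when any 1 of the 6 W5 and W8 libraries was left out (edgeR adjusted p = 0.0542 to 0.109). Of 6 other CBP60 family genes, 3 rose (median 0.23): AT5G57580 (0.42 ± 0.073, adjusted p = 0.000213), CBP60A (0.29 ± 0.091, adjusted p = 0.0203) and AT2G18750 (0.17 ± 0.062, adjusted p = 0.0414). Without W5 replicate 2, W8 replicate 2 or W8 replicate 3 there was 1 call, and AT2G18750 was not called with the size factors of DESeq2 (adjusted p = 0.0526) or with no filter on low counts (adjusted p = 0.0556).

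**Figure D4:**
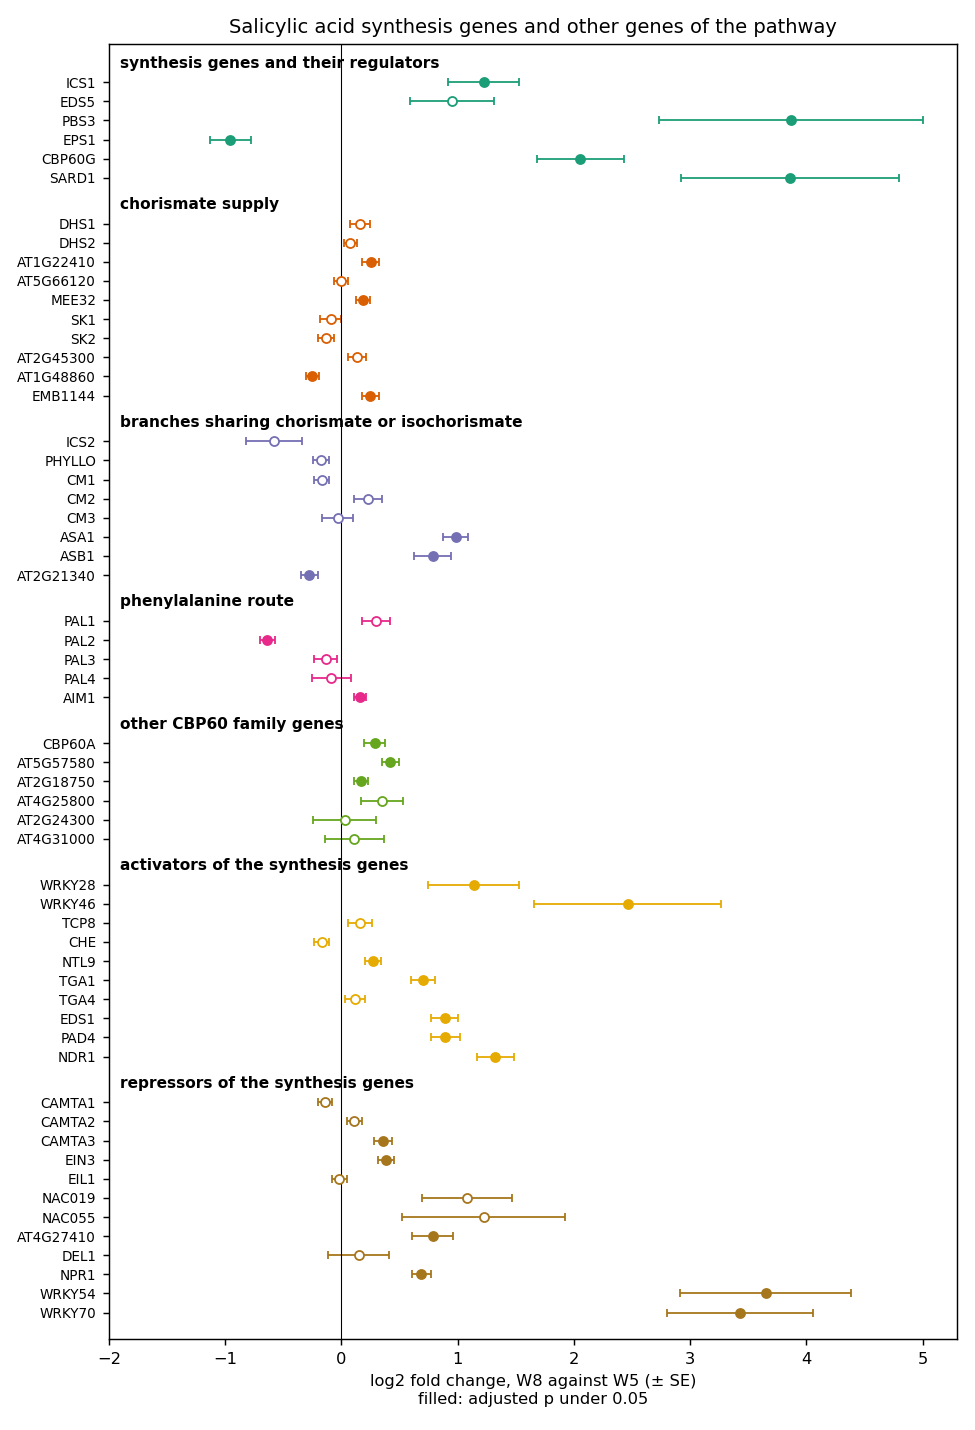
Log2 fold change of W8 against W5 with its standard error for the 6 genes and each other tested gene of the pathway lists; filled points passed the test. SARD1, PBS3 and CBP60G lie to the right, WRKY54 and WRKY70 lie at 3.65 and 3.43 among the repressors, and EPS1 and PAL2 lie left of 0.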

How the data were processed

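RNA was poly-A selected and sequenced in pairs. The authors deposited raw counts of fragments per gene, made with cutadapt 1.9.1 and featureCounts 1.22.2 on TAIR10, per the submitters' processing notes. No source used here gives the aligner, annotation release or strand setting, so overlapping genes may share reads. From the counts, edgeR 4.0.16 in R 4.3.3 (TMM scaling, filterByExpr by group with a count minimum of 10, robust quasi-likelihood fit, Benjamini-Hochberg adjustment over all genes tested) was fitted to all 15 libraries with 1 mean per group; slopes on log10 density used the 12 inoculated libraries and 19285 genes. CPM were computed with TMM scaling. The edgeR fits were tested on simulated data with known fold changes. P-values measure the spread between pools of plants. No replicate held the same values as another.

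The genes and the lists of other pathway genes were chosen with earlier results of these data known. Of each list, at most 4 genes called in W8 against W5 were picked by smallest p, and for each of the 6 genes the 3 genes most alike. WRKY28 and WRKY46 are also named because their calls changed, and WRKY54 because it lies furthest right in its list. Promoters come from the RefSeq annotation of TAIR10.1; 32548 genes of the table matched it. Alternatives were DESeq2 1.42.0, another filter and scaling, a replicate block, fits to the 2 groups compared and leaving out libraries.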

Additional observations from a re-analysis of the deposited data

How the results depend on the processing

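The number of the 6 genes called was unchanged, or within 1.5-fold, in W8 against W5 (4 to 6 on leaving out 1 library) and for the slope (5 to 6). In W8 against mock it was 1 with only the 2 groups compared, 5 with mock replicate 3 and W8 replicate 2 both left out, and 1 to 5 on leaving out 1 library. In W7 against mock that pair of libraries left out gave 1 call, and leaving out 1 library gave 0 to 1. In W7 against W6 leaving out 1 library gave 0 to 1. In W8 against W7 it was 1 in DESeq2, 1 with both of those libraries left out, and 0 to 2 on leaving out 1 library. In W7 against W5 it was 1 in DESeq2 and 0 to 2 on leaving out 1 library. Under these settings the share of all tested genes called is given above only for W7 and W8 against mock without mock replicate 3. The other counts cannot be set against such a share here. The cause of these changes was not tested.

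Directions that turned were those of values not called, given as log2 fold changes over the fits that leave out 1 library. In W6 against mock they spanned -2.37 to 0.61 for PBS3, -2.25 to 0.13 for SARD1 and -0.020 to 0.19 for EPS1. In W7 against mock they spanned -0.32 to 0.38 for ICS1, -0.27 to 0.54 for EDS5, -1.05 to 2.37 for PBS3, -0.082 to 0.85 for CBP60G (called at the upper end) and -0.46 to 2.21 for SARD1. In W6 against W5 they spanned -0.26 to 0.10 for EDS5 and -0.21 to 0.0048 for EPS1. Without mock replicate 3 and W8 replicate 2, PBS3 was at 0.62 and SARD1 at 0.14 in W6 against mock, and ICS1 at 0.37 and PBS3 at 2.36 in W7 against mock. The slope of the EDS5 ratio was 0.053 without W8.

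With the replicate block, 3 genes were called in W8 against mock (ICS1, EPS1 and CBP60G), 6 in W8 against W5, 6 for the slope and 0 in the other comparisons. The share of all tested genes called with the block is not given here. PBS3 in W7 against mock was at 0.15. The labels do not say whether the numbers pair the samples. In deviations from group means, 6 of 30 same-numbered pairs correlated above 0.1, with a range of -0.305 to 0.320. Of 60 different-numbered pairs, 11 did, with a range of -0.412 to 0.460. With 3 libraries per group this cannot decide whether samples were paired.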
